A study of Mus musculus with 12 samples.

Results

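The 9 genes described here encode enzymes or enzyme subunits of the citric acid cycle: Cs, Idh3a, Idh2, Ogdh, Suclg1, Sucla2, Suclg2, Fh1 and Mdh2. They were taken by gene symbol from the deposited table, leaving out the succinate dehydrogenase subunits, and are 9 of its 25553 genes. All 9 were among the 12357 genes tested, those in which 3 or more of the 12 libraries reached 1 FPKM, a read level scaled to gene length and library total. The 9 genes were above that level in every library. Kidneys came from wild-type mice in 4 groups of 3. HR mice were exposed to hypoxic preconditioning and then to renal ischemia-reperfusion injury (RIRI). NR mice had RIRI without preconditioning. HS mice were preconditioned and sham operated, and NS mice were sham operated without preconditioning. For RIRI both renal pedicles were clamped for 45 min, and the kidneys were taken after 12 h of reperfusion. For preconditioning the mice were kept in a normobaric chamber at 8% oxygen, to which the air was brought down within 20 min, with a session on each of 3 days that lasted 2 h, then 4 h, then 8 h. Strain, age and sex are not stated in the labels.

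The citric acid cycle runs in the mitochondrial matrix. It oxidizes acetyl-CoA from fatty acids, pyruvate and amino acids to carbon dioxide and passes the electrons, as NADH and through succinate dehydrogenase, to the respiratory chain. The proximal tubule and the thick ascending limb of the kidney are rich in mitochondria and depend on this oxidation for active transport of solutes. In ischemia oxidation stops and succinate builds up, and the same tubule segments are prone to injury.

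Each library came to 33096854 to 35707662 reads as recovered from the steps between FPKM values, and relative depth ran from 0.962 to 1.04. The reads behind a value ranged from 3371 for Idh3a in 1 library to 28826 for Ogdh in another. Kidney markers were present in all groups. The summed FPKM of 10 proximal tubule markers was 2424 to 2864 in HR, 1579 to 2066 in NR, 5219 to 5418 in HS and 5342 to 5634 in NS. The summed FPKM of 8 neutrophil markers was 23.6 to 111 in HR, 132 to 293 in NR, 1.73 to 4.39 in HS and 2.26 to 15.1 in NS. Markers of adrenal gland, T, NK and B cells were near 0, with sums of at most 2.85 in any library.

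After RIRI in mice without preconditioning, 6 of the 9 genes fell. Idh2 fell most, by 1.29 on the log2 scale of FPKM + 1, and Sucla2, Suclg1, Ogdh, Suclg2 and Idh3a fell by 0.44 to 0.80. Cs, Fh1 and Mdh2, which encode the enzymes of the first and the last steps of the cycle, did not pass the test. Among all genes tested, 30.1% were called lower, 41.6% higher and 71.7% in either direction in this comparison, by limma at a Benjamini-Hochberg adjusted p under 0.05. The median log2 difference of NR minus NS was -0.47 over the 9 genes, beside 0.10 over all genes tested. In injured kidneys of preconditioned mice 5 of the 9 genes were higher than in injured kidneys without preconditioning, by 0.25 to 0.49, and these were Suclg1, Idh2, Idh3a, Ogdh and Sucla2. The background for HR minus NR was 24.7% called higher, 17.4% lower and 42.1% in either direction, and the groups did not overlap in 47.7% of genes. HR and NR did not overlap in 5 of the 9 genes, the same 5 that were called from those values. That count lies near the share of all genes and does not set the 9 genes apart. The count of 5 was 3 without HR replicate 1, HR replicate 2 or NR replicate 2, and 2, Suclg1 and Idh2, in a fit of only HR and NR. Preconditioning of sham mice, HS minus NS, gave 0 calls among the 9 genes by limma and 0 by limma voom on recovered reads, with 1 gene (Cs) at an unadjusted p under 0.05. The background in that comparison was 0.421% of all genes. All these are RNA levels in whole kidney tissue, in which fewer cells of a type and less RNA per cell cannot be told apart.

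**Figure D1:**
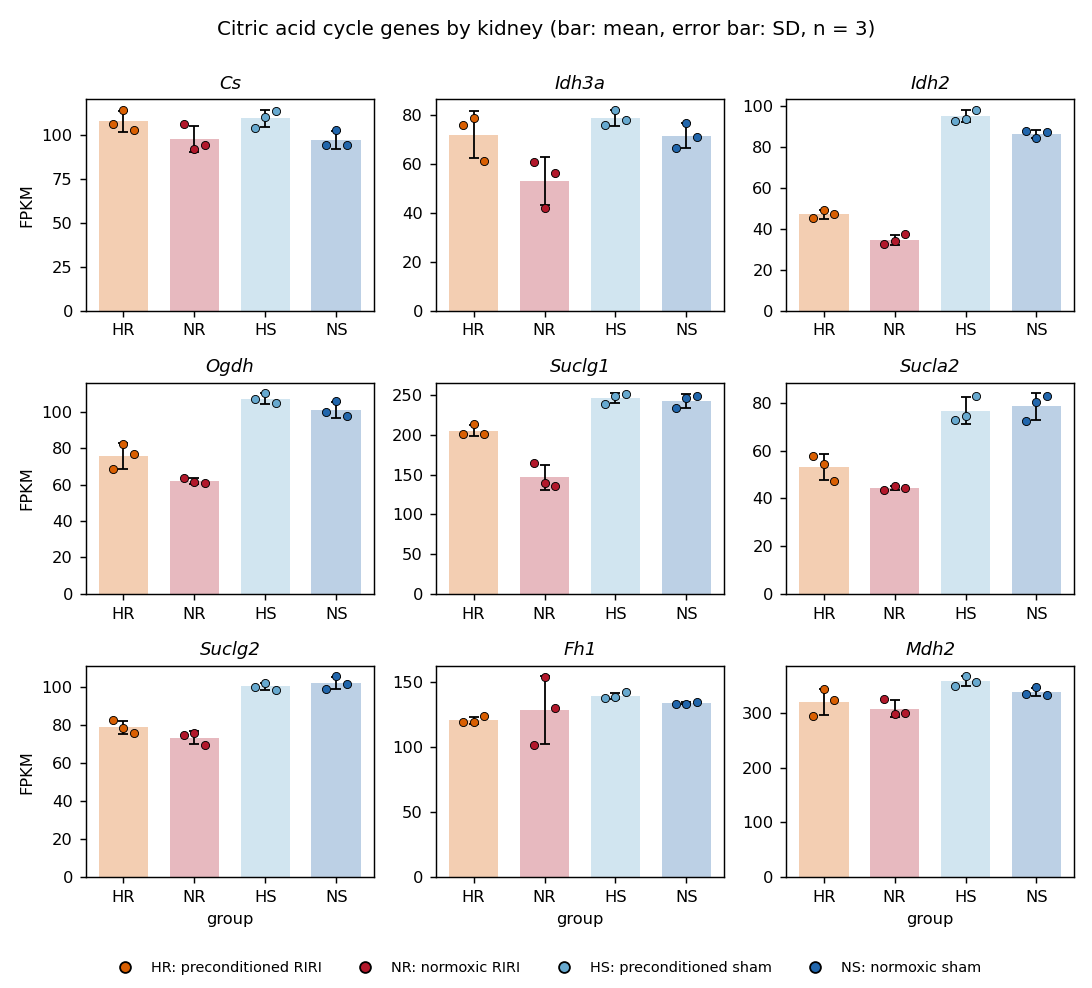
FPKM of each of the 9 genes (y axis, from 0) in the kidneys of HR, NR, HS and NS mice (x axis). Points are single mice, bars the mean and error bars the SD of 3 mice. Idh2 had the largest fold change of NR against NS, with 45.1 to 49.5 in HR, 32.7 to 37.3 in NR, 93.0 to 98.5 in HS and 84.3 to 87.8 in NS, while the groups of Cs lie close together.

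The sequences around the start sites are shown for Cs and Idh2, the genes with the smallest and the largest size of NR minus NS, so that they can be set side by side. An Ogdh window is shown as well, chosen after the search as the first of 3 overlapping or nearby Ogdh windows that held the most motif matches, 3 each. They are RefSeq promoter windows of GRCm38.p6, the assembly behind mm10, from 250 bases before to 50 bases after a start site, 300 bases in all, printed 5′ to 3′ on the strand of the gene. Cs is at chr10:128337477-128337776 on the plus strand, Idh2 at chr7:80115301-80115600 on the minus strand, and the Ogdh window at chr11:6291920-6292219 on the plus strand. The Idh2 and Ogdh windows lie inside the spans of their genes, past the 5′ ends at 80118608 (Idh2) and 6291597 (Ogdh). Capitals mark the motif matches.
Cs: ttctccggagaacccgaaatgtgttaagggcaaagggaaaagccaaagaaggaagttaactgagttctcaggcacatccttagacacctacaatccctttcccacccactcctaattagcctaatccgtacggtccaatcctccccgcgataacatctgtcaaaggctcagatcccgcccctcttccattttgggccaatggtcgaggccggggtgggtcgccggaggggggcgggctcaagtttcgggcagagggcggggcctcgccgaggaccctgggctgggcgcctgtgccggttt
Idh2: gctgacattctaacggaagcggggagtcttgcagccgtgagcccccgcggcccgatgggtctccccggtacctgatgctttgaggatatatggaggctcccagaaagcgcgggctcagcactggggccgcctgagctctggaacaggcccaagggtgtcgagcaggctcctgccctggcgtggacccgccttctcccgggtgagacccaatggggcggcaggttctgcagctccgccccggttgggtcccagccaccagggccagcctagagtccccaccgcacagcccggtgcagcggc
Ogdh: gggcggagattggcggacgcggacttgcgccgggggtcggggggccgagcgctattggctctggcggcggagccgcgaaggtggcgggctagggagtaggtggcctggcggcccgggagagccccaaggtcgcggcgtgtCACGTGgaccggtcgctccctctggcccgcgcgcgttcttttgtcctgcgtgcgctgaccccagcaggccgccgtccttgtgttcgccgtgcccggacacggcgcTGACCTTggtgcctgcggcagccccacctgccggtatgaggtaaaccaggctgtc
The motifs searched on both strands were AAGGTCA (a core bound by estrogen-related receptors), TGCGCA (the core of the NRF1 site), ACGTG (the core of the hypoxia response element) and CCGGAAG (an ETS or GABP site). In the Ogdh window the 6 capitals hold ACGTG on both strands, the matches overlapping each other, and the 7 capitals hold AAGGTCA on the minus strand. Neither the Cs nor the Idh2 window held any of the 4 motifs, and no window at the 5′ end of the Idh2 span was searched. The promoter table held 8 of the 9 genes, all but Idh3a, in 13 windows, of which 6 belonged to Ogdh, several overlapping. ACGTG was in 6 of the 13 windows, all of Ogdh, beside 19.6% of the 32817 windows of all genes. TGCGCA was in 3 of 13, of Ogdh and Mdh2, beside 7.75% of all windows. AAGGTCA was in 1 of 13 beside 4.72%, and CCGGAAG in 0 of 13 beside 8.86%. These matches describe letters in the windows only.

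Citrate synthase, encoded by Cs (chromosome 10, 128337727 to 128362482, plus strand, mm10), joins acetyl-CoA with oxaloacetate in the first step of the cycle and its activity is in wide use as a measure of mitochondrial mass. Cs had 106, 114 and 103 FPKM in HR kidneys, against 106, 92.1 and 94.5 FPKM in NR kidneys. It had 104, 110.3 and 114 FPKM in HS kidneys, against 94.4, 103 and 94.1 FPKM in NS kidneys. The NR kidneys reached to both sides of the NS kidneys, and HS kidneys lay above all NS kidneys. NR minus NS was 0.01 ± 0.08 (log2, SE, n = 3 per group) with a 95% interval of -0.16 to 0.17 and an adjusted p of 0.95. HR minus NR was 0.14 ± 0.08 with an adjusted p of 0.145, and HS minus NS was 0.17 ± 0.08 with an adjusted p of 0.337. The unadjusted p of HS minus NS was 0.0427, the single one of the 9 genes under 0.05 in that comparison. With median-ratio rescaling, NR minus NS of Cs was -0.12 and still not called, so its sign depends on the scaling. Without NR replicate 1, the highest NR kidney, HR minus NR of Cs was 0.20 with an adjusted p of 0.0453. Csl, a citrate synthase-like gene, shares 91.9% identity with Cs over 1522 bases but had at most 0.165 FPKM.

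The NAD-dependent isocitrate dehydrogenase of the cycle is built from Idh3a, its catalytic subunit, with Idh3b and Idh3g. Idh3a (chromosome 9, 54586511 to 54604662, plus strand) had 75.8, 78.6 and 60.9 FPKM in HR kidneys, against 60.7, 41.9 and 56.2 FPKM in NR kidneys. It had 75.6, 82.1 and 78.0 FPKM in HS kidneys, against 66.5, 76.7 and 70.9 FPKM in NS kidneys. The lowest HR kidney stood just above the highest NR kidney, and both RIRI groups were spread more widely than the sham groups. Idh3a fell by 0.44 ± 0.13 in NR relative to NS, with an adjusted p of 0.0101. It was 0.44 ± 0.13 higher in HR than in NR, with an adjusted p of 0.0193. HR minus HS was -0.14 ± 0.13 and not called, with a 95% interval of -0.43 to 0.15. The HR minus NR call was lost without HR replicate 1, without HR replicate 2 and without NR replicate 2, with adjusted p of 0.058, 0.0746 and 0.061, and in a fit of only the 2 groups, with 0.0783.

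Idh2 (chromosome 7, 80094845 to 80118608, minus strand) encodes the mitochondrial isocitrate dehydrogenase that yields NADPH, which feeds the glutathione and thioredoxin systems of the matrix. Idh2 had 45.1, 49.5 and 47.1 FPKM in HR kidneys, against 32.7, 34.1 and 37.3 FPKM in NR kidneys. It had 93.0, 94.1 and 98.5 FPKM in HS kidneys, against 87.8, 84.3 and 87.3 FPKM in NS kidneys. The 4 groups did not overlap, with the order HS, NS, HR and NR from high to low. Idh2 fell by 1.29 ± 0.07 in NR relative to NS, which is a fold of 0.408, with an adjusted p of 1.8e-08. In preconditioned mice it fell by 1.00 ± 0.07 in HR relative to HS, a fold of 0.501, with an adjusted p of 6.56e-07. It was 0.43 ± 0.07 higher in HR than in NR, with an adjusted p of 0.000492. HS minus NS was 0.14 ± 0.07 with an adjusted p of 0.389, although the groups did not overlap, as was the case for 29.4% of all genes in that comparison.

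The ratio of Idh2 to Idh3a sets the NADP-dependent enzyme beside the catalytic subunit of the NAD-dependent one within each kidney and does not depend on library scaling. It was 0.596, 0.630 and 0.773 in HR, against 0.540, 0.814 and 0.664 in NR. In sham kidneys it was 1.23, 1.15 and 1.26 in HS, against 1.32, 1.10 and 1.23 in NS. In all 6 sham kidneys Idh2 was above Idh3a, and in all 6 RIRI kidneys it was below. Idh3b and Idh3g, whose differences between groups were not those of Idh3a, are not in this ratio. The coefficient of variation of Idh3a was 13.3% in HR and 18.5% in NR. The log2 ratio was 0.87 lower in NR than in NS and 0.87 lower in HR than in HS, each with an exact permutation p of 0.1 (two-sided, 3 against 3, 0.171 adjusted over 12 ratio tests). That is the smallest p which 3 against 3 allows, so none of these ratio tests could pass 0.05. HR minus NR of the log2 ratio was -0.0025 with an exact permutation p of 1.

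Ogdh (chromosome 11, 6291597 to 6359094, plus strand) encodes the E1 subunit of the 2-oxoglutarate dehydrogenase complex, which makes succinyl-CoA and NADH. Ogdh had 68.3, 82.1 and 76.8 FPKM in HR kidneys, against 63.7, 61.4 and 60.7 FPKM in NR kidneys. It had 107, 110.3 and 104 FPKM in HS kidneys, against 99.8, 106 and 97.5 FPKM in NS kidneys. All HR kidneys lay above all NR kidneys and below all sham kidneys of both groups. Ogdh fell by 0.70 ± 0.07 in NR relative to NS (adjusted p of 4.35e-06) and by 0.50 ± 0.07 in HR relative to HS (adjusted p of 0.000167). It was 0.28 ± 0.07 higher in HR than in NR, with an adjusted p of 0.00966. In a fit of only HR and NR that adjusted p was 0.0667.

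Succinyl-CoA synthetase turns succinyl-CoA into succinate and makes a nucleoside triphosphate in the matrix. Suclg1 encodes its alpha subunit, which pairs with the beta subunit of Sucla2 to make ATP or with that of Suclg2 to make GTP. Suclg1 (chromosome 6, 73248505 to 73276907, plus strand) had 201, 213 and 201 FPKM in HR kidneys, against 164, 139 and 136 FPKM in NR kidneys. It had 239, 249 and 251 FPKM in HS kidneys, against 233, 246 and 249 FPKM in NS kidneys. All HR kidneys stood above all NR kidneys, and HS and NS kidneys overlapped. Suclg1 fell by 0.73 ± 0.08 in NR relative to NS (adjusted p of 3.9e-06) and by 0.26 ± 0.08 in HR relative to HS (adjusted p of 0.0116). It was 0.49 ± 0.08 higher in HR than in NR, a fold of 1.40, with an adjusted p of 0.000541.

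Sucla2 (chromosome 14, 73552786 to 73596144, plus strand) had 57.9, 54.6 and 47.1 FPKM in HR kidneys, against 43.7, 45.4 and 44.4 FPKM in NR kidneys. It had 72.8, 74.6 and 83.1 FPKM in HS kidneys, against 72.3, 80.5 and 83.0 FPKM in NS kidneys. The 3 NR kidneys lay close together, and the lowest HR kidney was just above them. Sucla2 fell by 0.80 ± 0.09 in NR relative to NS (adjusted p of 5.68e-06) and by 0.52 ± 0.09 in HR relative to HS (adjusted p of 0.000402). It was 0.25 ± 0.09 higher in HR than in NR, with an adjusted p of 0.0395. That call held in 9 of 21 alternatives, where adjusted p ran from 0.0118 to 0.16. It was lost with both other scalings, at 0.16 by median-ratio and 0.0654 by quantile scaling, with no filter (0.0626) and in a fit of only HR and NR (0.104). It was also lost without HR replicate 1 (0.137) or 2 (0.106), without any 1 NR replicate (0.0597 to 0.0804), and without HS replicate 2 (0.0528) or NS replicate 2 (0.0533).

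Suclg2 (chromosome 6, 95473009 to 95718858, minus strand) had 82.4, 78.5 and 75.5 FPKM in HR kidneys, against 74.8, 75.6 and 69.4 FPKM in NR kidneys. It had 100.05, 102 and 98.3 FPKM in HS kidneys, against 99.0, 105 and 101 FPKM in NS kidneys. The ranges of HR and NR kidneys overlapped slightly, and both lay below all sham kidneys. Suclg2 fell by 0.47 ± 0.06 in NR relative to NS (adjusted p of 2.85e-05) and by 0.34 ± 0.06 in HR relative to HS (adjusted p of 0.00072). HR minus NR was 0.10 ± 0.06 and not called (adjusted p of 0.202), with a 95% interval of -0.03 to 0.24. Its values carry some uncertainty, since the processed pseudogene Gm15163 is 98.9% identical to Suclg2 over 1302 bases and how reads shared by both were counted is not stated.

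Within each kidney, the ratio of Sucla2 to Suclg2, the ATP-forming to the GTP-forming beta subunit, was 0.702, 0.696 and 0.625 in HR, against 0.584, 0.601 and 0.640 in NR. It was 0.727, 0.731 and 0.845 in HS, against 0.731, 0.763 and 0.820 in NS. Every RIRI kidney had a lower ratio than every sham kidney. The log2 ratio was 0.34 lower in NR than in NS and 0.19 lower in HR than in HS, each with an exact permutation p of 0.1 (two-sided), and it was 0.15 higher in HR than in NR with an exact p of 0.2. The ratio of Suclg1 to the summed beta subunits was 1.43, 1.60 and 1.64 in HR, against 1.38, 1.15 and 1.196 in NR. It was 1.38, 1.41 and 1.38 in HS, against 1.36, 1.32 and 1.35 in NS. HR kidneys had the highest values of the 4 groups. The difference of HR minus NR was 0.33 on the log2 scale, without overlap and with an exact permutation p of 0.1.

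**Figure D2:**
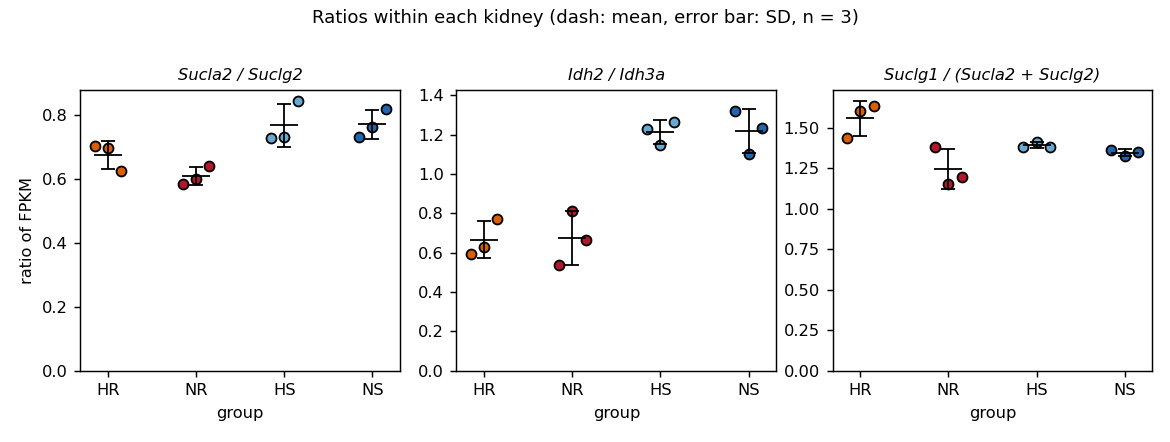
Ratios of FPKM within each kidney (y axes, from 0) for Sucla2 over Suclg2, Idh2 over Idh3a, and Suclg1 over the sum of Sucla2 and Suclg2, in HR, NR, HS and NS mice (x axes). Points are mice, dashes the mean and error bars the SD of 3 mice. Idh2 over Idh3a is 1.10 to 1.32 in sham kidneys and 0.540 to 0.814 in RIRI kidneys.

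Fumarase, encoded by Fh1 (chromosome 1, 175601378 to 175625635, minus strand), hydrates fumarate to malate. Fh1 had 119, 119 and 124 FPKM in HR kidneys, against 102, 153 and 130 FPKM in NR kidneys, the widest spread of any of the 9 genes in any group, with a coefficient of variation of 20.2%. It had 137, 138 and 142 FPKM in HS kidneys, against 133, 133 and 134 FPKM in NS kidneys. The NR kidneys lay on both sides of all the other groups. NR minus NS was -0.08 ± 0.11 and not called (adjusted p of 0.551, 95% interval -0.33 to 0.17), and HR minus NR was -0.07 ± 0.11 and not called (adjusted p of 0.653). Single NR kidneys decided both values. Without NR replicate 2, NR minus NS was -0.22 with an adjusted p of 0.0449, and without NR replicate 1 it was 0.08. Without NR replicate 1, HR minus NR was -0.23 with an adjusted p of 0.0322, and without NR replicate 2 it was 0.07. HR kidneys lay below all HS kidneys, but HR minus HS, at -0.20 ± 0.11, was not called (adjusted p of 0.149), and it was called in a fit of only these groups (0.0216) and without NR replicate 1 (0.0243) or 2 (0.0449).

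Mdh2 (chromosome 5, 135778649 to 135790386, plus strand) encodes mitochondrial malate dehydrogenase, which closes the cycle by forming oxaloacetate and also serves the malate-aspartate shuttle. Mdh2 had 294, 342 and 323 FPKM in HR kidneys, against 326, 297 and 299.5 FPKM in NR kidneys. It had 349, 367 and 357 FPKM in HS kidneys, against 333, 346 and 333 FPKM in NS kidneys. All NR kidneys lay below all NS kidneys, and all HR kidneys below all HS kidneys. Groups without overlap were common, with 74.3% of all genes in NR against NS and 63.3% in HR against HS. NR minus NS was -0.14 ± 0.07 with an adjusted p of 0.0999, and HR minus HS was -0.16 ± 0.07 with an adjusted p of 0.0694, neither of them called. Both were called after median-ratio rescaling, with NR minus NS at -0.26 (adjusted p of 0.00433) and HR minus HS at -0.28 (adjusted p of 0.00466). NR minus NS was also called without NR replicate 1 (0.0489), and HR minus HS without HR replicate 2 (0.0279). HR minus NR was 0.05 ± 0.07 with an adjusted p of 0.558, and -0.02 after that rescaling.

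**Figure D3:**
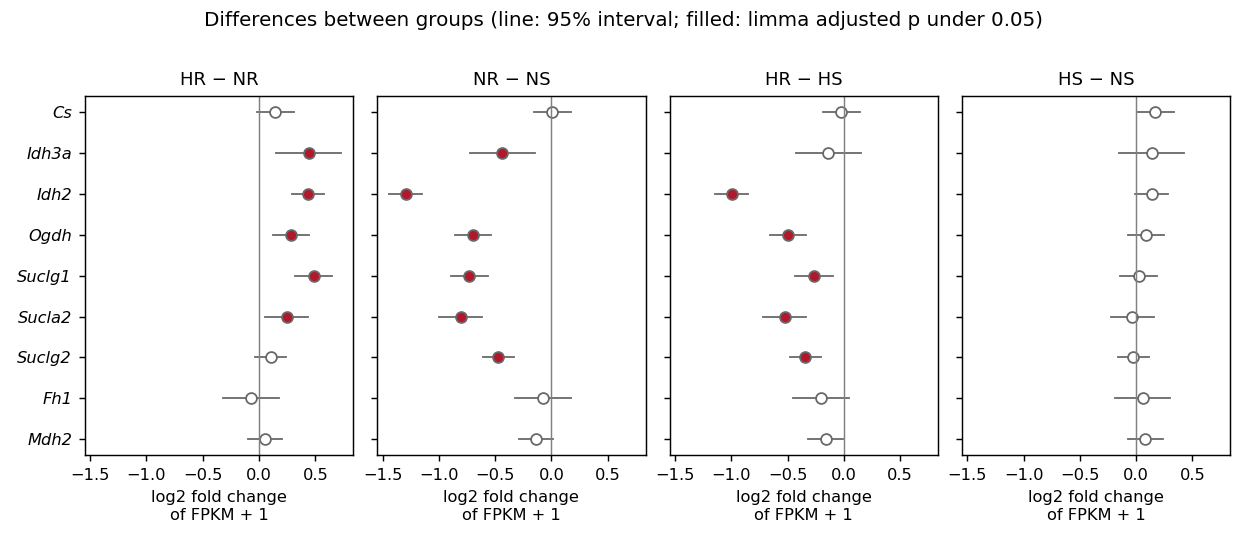
Log2 fold changes of FPKM + 1 (x axes) of the 9 genes (y axis) for HR minus NR, NR minus NS, HR minus HS and HS minus NS. Points are estimates, lines 95% intervals, and filled points have an adjusted p under 0.05. The injury differences run from -1.29 (Idh2) to 0.01 (Cs) in NR minus NS, and no point is filled in HS minus NS.

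In preconditioned mice, 5 of the 9 genes fell after RIRI, HR minus HS, beside 19.4% called lower, 33.0% higher and 52.4% in either direction among all genes. These were Idh2, Sucla2, Ogdh, Suclg2 and Suclg1, all of which also fell in NR minus NS. The median over the 9 genes was -0.26, beside 0.10 over all genes. The scaling moves the background: HR minus HS called 4083 genes higher and 2397 lower, and 3060 higher and 3139 lower after median-ratio rescaling. HR minus NR called 3053 higher and 2150 lower, and 2526 higher and 2711 lower after that rescaling. The median of all genes in NR minus NS was 0.10 before it and -0.0019 after it.

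Whether the injury effect differed with preconditioning was tested by the interaction, the injury effect in preconditioned mice (HR minus HS) minus that in mice without it (NR minus NS). Suclg1 and Idh2 passed, 2 of the 9 genes, beside 11.3% called higher and 23.9% in either direction among all genes. This count lies near the share called in either direction and does not set the 9 genes apart. Suclg1 fell by 0.26 in HR relative to HS, against 0.73 in NR relative to NS, a difference of 0.47 ± 0.11 with an adjusted p of 0.0103. Idh2 fell by 1.00 in HR relative to HS, against 1.29 in NR relative to NS, a difference of 0.30 ± 0.09 with an adjusted p of 0.0399. The Suclg1 call held in 20 of 20 alternatives, with adjusted p of 0.0017 to 0.0303. The Idh2 call held in 9 of 20, with adjusted p of 0.024 to 0.0941. It was lost without any 1 HS or NS replicate, without HR replicate 2 or 3, and without NR replicate 1 or 2, with adjusted p of 0.0551 to 0.0941. For Idh3a, Sucla2, Ogdh and Suclg2 the difference was 0.13 to 0.30 and not called, with adjusted p of 0.119 to 0.31. For Mdh2, Cs and Fh1 it was -0.13 to -0.03 and not called.

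For the 6 genes that fell in NR, the place of the HR kidneys was expressed on a scale from the NS mean (0%) to the NR mean (100%) of log2(FPKM + 1). Suclg1 in HR stood at 33.4 ± 6.65% (SD, n = 3) of the way to the NR level, with 36.97, 25.76 and 37.55% in the 3 kidneys. Ogdh stood at 59.4 ± 19.2%, Idh2 at 66.4 ± 5.06%, Sucla2 at 69.3 ± 18.6% and Suclg2 at 78.1 ± 13.3%. Idh3a stood at -0.49 ± 44.8%, with its HR kidneys at -20.2, -32.1 and 50.8%. The 3 Suclg1 kidneys did not overlap those of Idh2, Sucla2, Suclg2 or Ogdh, whereas the kidneys of those 4 genes overlapped one another. After median-ratio rescaling Idh3a stood at 34.96%, Suclg1 at 51.98%, Idh2 at 74.53%, Ogdh at 74.63%, Sucla2 at 81.31% and Suclg2 at 95.04%. The scale has the NS and NR libraries in it, which the comparisons above use too.

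**Figure D4:**
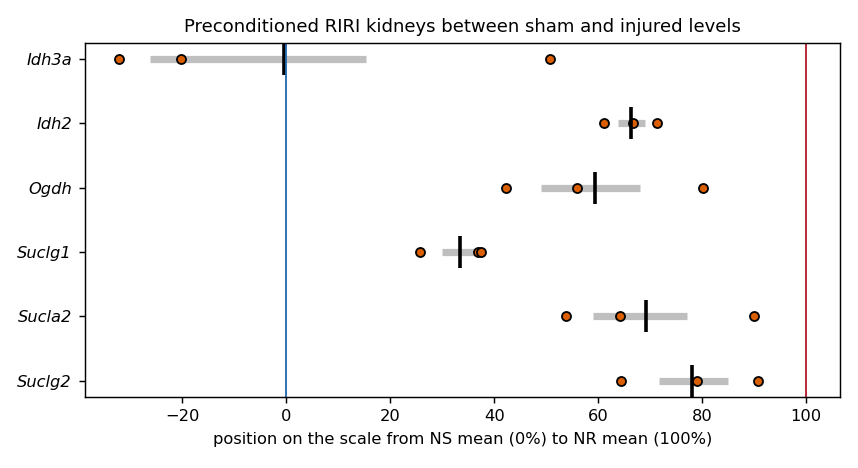
Position of HR kidneys (x axis, percent) between the NS mean (0%, blue line) and the NR mean (100%, red line) of log2(FPKM + 1) for the 6 genes called lower in NR. Points are HR mice, black ticks the value from group means, and grey bars the range on leaving out each library. Suclg1 lies at 33.4% and Suclg2 at 78.1%, while the 3 HR mice of Idh3a spread from -32.1% to 50.8%.

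The levels per gene length can be ordered within each group. In NS kidneys Mdh2 (338 FPKM), Suclg1 (243) and Fh1 (134) led, followed by Suclg2 (102), Ogdh (101) and Cs (97.1), whose ranges overlapped, then Idh2 (86.5), and Sucla2 (78.6) and Idh3a (71.4), whose ranges overlapped. HS kidneys had the same leading 3, and Idh2 (95.2) stood above Idh3a (78.6) and Sucla2 (76.8) without overlap. In NR kidneys Mdh2 (307) led, the ranges of Suclg1 (147) and Fh1 (128) overlapped, and Idh2 (34.7) was lowest of the 9 without overlap. In HR kidneys Suclg1 (205) stood above Fh1 (120.5) again without overlap, and Idh2 (47.3) and Sucla2 (53.2) were the lowest pair, with ranges that overlapped. Summed over the 9 genes, the level was 1079.5 ± 45.4 FPKM in HR, 947 ± 23.7 in NR, 1309.7 ± 28.4 in HS and 1250.3 ± 31.0 in NS (SD, n = 3 each). Mdh2 made up 29.6% of that sum in HR and 32.4% in NR, against 27.3% in HS and 27.0% in NS, and Idh2 made up 4.38% in HR and 3.67% in NR, against 7.27% in HS and 6.92% in NS.

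Across the 12 libraries Ogdh, Idh2, Suclg1, Sucla2 and Suclg2 followed the mean of the other 8 genes closely, with Pearson r of 0.97, 0.95, 0.93, 0.92 and 0.90. Mdh2 had 0.83, Idh3a 0.75, Cs 0.32 and Fh1 0.22. These values describe 12 libraries in 4 groups and carry no test, since the libraries share their group. The genes outside the 9 whose log2 levels were most like the mean of the 9 were Gal3st1, Ranbp3l, Slc28a1, Slc2a4, Dcaf11 and Ptger3, with r of 0.988 to 0.993 over the 12 libraries. Gal3st1, which makes sulfatide in the tubule, averaged 7.65 FPKM in HR, 4.68 in NR, 14.1 in HS and 11.4 in NS. Slc2a4, the glucose transporter GLUT4, averaged 4.64 FPKM in HR, 1.35 in NR, 12.4 in HS and 9.54 in NS.

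Of the other cycle subunits, 8 were compared with the 9 genes. All 8 fell in NR relative to NS, with a median of -0.74, and all 8 were higher in HR than in NR, with a median of 0.34. Among all genes, 30.1% were called lower in NR minus NS and 24.7% higher in HR minus NR. In HR minus HS all 8 fell, with a median of -0.46, beside 19.4% of all genes called lower. None was called in HS minus NS, beside 0.421% of all genes. Idh3b and Idh3g, the partners of Idh3a, fell by 0.66 ± 0.06 and 0.58 ± 0.06 in NR, and they fell by 0.35 ± 0.06 each in HR relative to HS, a comparison in which Idh3a was not called. Dlst and Dld, the E2 and E3 subunits that complete the complex of Ogdh, fell by 0.57 ± 0.08 and 0.54 ± 0.08 in NR. The succinate dehydrogenase subunits Sdha, Sdhb, Sdhc and Sdhd, between Suclg1 and Fh1 in the cycle, fell by 0.82 to 1.04 in NR. Sdhb, the iron-sulfur subunit, had 223, 259 and 209 FPKM in HR, against 185, 189 and 158 FPKM in NR. It had 358, 388 and 399 FPKM in HS, against 362, 363 and 372 FPKM in NS, so that every sham kidney stood above every RIRI kidney. Among these 8 subunits the interaction was called for Sdha (0.32), Sdhc (0.32) and Idh3b (0.31), beside 11.3% called higher and 23.9% in either direction among all genes.

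**Figure D5:**
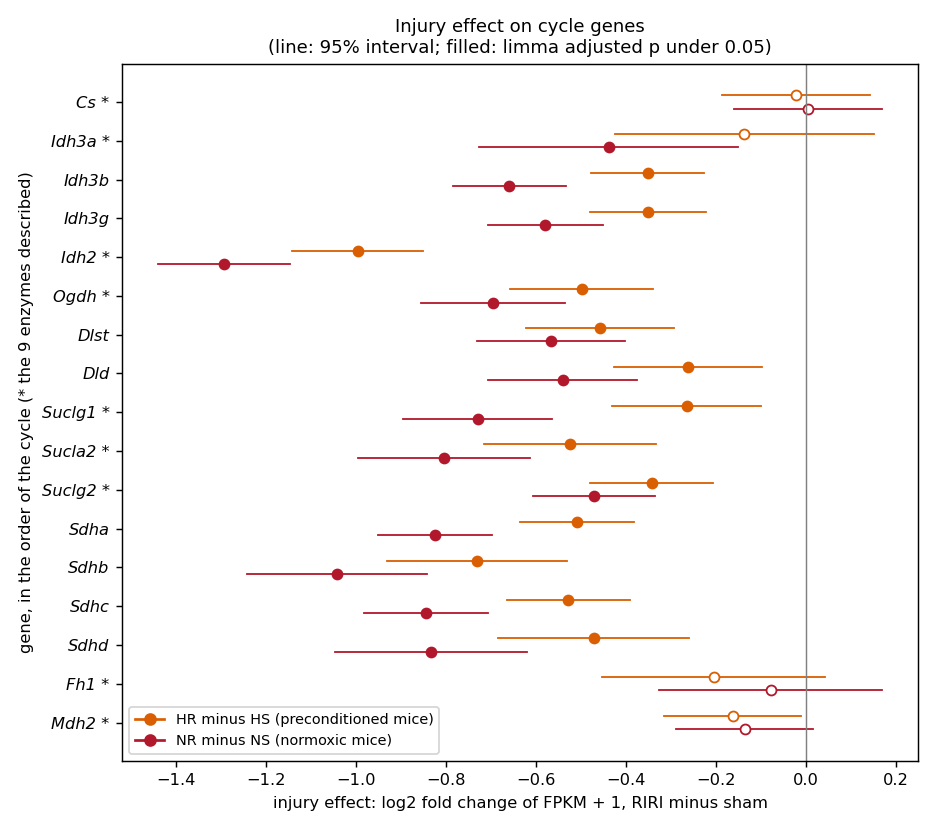
Injury effect on the log2 scale of FPKM + 1 (x axis), HR minus HS and NR minus NS, for the 9 genes (starred) and the 8 other subunits, in the order of the cycle (y axis). Points are estimates, lines 95% intervals, filled points have an adjusted p under 0.05. Idh3b, Idh3g, Dlst, Dld and the Sdh subunits are filled in both comparisons, whereas Cs, Fh1 and Mdh2 are filled in neither.

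The cytosolic counterparts split. Mdh1 fell by 1.30 ± 0.08, Idh1 by 1.14 ± 0.23 and Aco1 by 0.65 ± 0.06 in NR relative to NS, and Acly, which turns exported citrate into acetyl-CoA for lipid synthesis, was 0.63 ± 0.11 higher. Mdh1, the cytosolic partner of Mdh2 in the malate-aspartate shuttle, had 415, 416 and 353 FPKM in HR, against 302, 331 and 310.1 FPKM in NR. It had 735, 784 and 762 FPKM in HS, against 759, 758 and 808 FPKM in NS, so that sham kidneys had more than any RIRI kidney. Mdh1, Idh1 and Aco1 were higher in HR than in NR, by 0.33, 0.79 and 0.38, and Acly was not called. The HR and NR kidneys overlapped for Idh1, with 157, 237 and 123 FPKM in HR, against 137, 80.3 and 80.2 FPKM in NR.

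Of 10 genes that bring carbon into the cycle or take it out, 5 were higher and 4 lower in NR than in NS, and 2 were higher and 1 lower in HR than in NR. Among all genes the shares were 41.6% higher and 30.1% lower in NR, and 24.7% higher and 17.4% lower in HR relative to NR, so that these counts do not set the list apart. Me1 fell by 0.95 ± 0.08 in NR, and Me3 fell by 0.57 ± 0.08; both encode malic enzymes. Gpt2, the mitochondrial alanine aminotransferase, was 0.95 ± 0.16 higher in NR and Got1, the cytosolic aspartate aminotransferase, 0.61 ± 0.10 higher. In HR relative to NR, Me3 was 0.46 ± 0.08 higher, Pck1, which draws oxaloacetate off for glucose synthesis, 1.06 ± 0.29 higher, and Got1 0.34 ± 0.10 lower. Gpt2 and Me1 were not called there.

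Around succinyl-CoA, 5 of 6 genes fell in NR and 1 rose, Alas1, which starts heme synthesis from succinyl-CoA (1.40 ± 0.18). Among all genes, 30.1% were called lower and 41.6% higher in that comparison. Mmut, the methylmalonyl-CoA mutase that feeds propionate carbon into succinyl-CoA, fell by 1.14 ± 0.06 in NR relative to NS and was 0.56 ± 0.06 higher in HR than in NR. Pcca, a subunit of propionyl-CoA carboxylase, fell by 1.24 ± 0.07, and Oxct1, which uses succinyl-CoA to activate ketone bodies, fell by 1.36 ± 0.12. In the list of itaconate, succinate receptor and 2-hydroxyglutarate genes, 5 of 5 tested genes fell in NR and all 5 were higher in HR than in NR. The share of all genes called higher in HR minus NR was 24.7%. Sucnr1, the receptor for extracellular succinate, had 6.44, 15.6 and 5.06 FPKM in HR, against 1.28, 0.837 and 0.559 FPKM in NR, and 35.1, 36.6 and 23.4 FPKM in HS, against 35.2, 29.6 and 30.1 FPKM in NS. Sucnr1 was 2.28 ± 0.31 higher in HR than in NR, with an adjusted p of 0.000226. Adhfe1, a mitochondrial enzyme that forms 2-hydroxyglutarate, fell by 1.91 ± 0.12 in NR. Acod1, which makes itaconate and is the 1 listed gene not tested, was under the filter, with at most 0.739 FPKM in any library.

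Of 12 genes of mitochondrial import, membrane and maintenance, 4 were higher and 3 lower in NR than in NS, with a median of 0.18. These shares lie near those of all genes, 41.6% higher and 30.1% lower. The outer membrane channel Vdac1 fell by 0.73 ± 0.07 in NR, whereas the import pore Tomm40 was 0.84 ± 0.10 higher. Of the 13 protein genes of the mitochondrial genome, 5 were lower in NR. None was called in HR minus NR, beside 24.7% higher and 17.4% lower among all genes. Levels in this list were uneven, with a mean in NS kidneys of 18189 FPKM for CYTB and 150 FPKM for COX3. How reads shared with other genes were counted is not stated. Among 7 regulators of mitochondrial biogenesis, 5 fell in NR and Nrf1 was 0.41 ± 0.08 higher. Ppargc1a, the coactivator PGC-1 alpha, had 2.74, 3.56 and 2.91 FPKM in HR, against 1.62, 1.10 and 1.52 FPKM in NR, and 5.83, 5.15 and 6.30 FPKM in HS, against 4.62, 4.62 and 4.65 FPKM in NS. Esrra, an estrogen-related receptor that binds with it at genes of oxidative metabolism, fell by 1.43 ± 0.16 in NR and was 0.79 ± 0.16 higher in HR than in NR.

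Markers of kidney cell types differed between the groups as well. Among all genes, 30.1% were lower and 41.6% higher in NR minus NS, and 24.7% higher and 17.4% lower in HR minus NR. Of 10 proximal tubule markers, 10 fell in NR relative to NS, with a median of -1.79, and 8 were higher in HR than in NR. Of 6 thick ascending limb markers, 5 fell in NR and all 6 were higher in HR than in NR. Of 5 distal convoluted and connecting tubule markers, 4 fell in NR and 2 were higher in HR than in NR, and of 6 collecting duct markers, 4 fell in NR and 3 were higher in HR. Of 5 endothelial markers, 3 were higher in NR than in NS and 2 lower in HR than in NR. Of 7 neutrophil markers tested, 7 were higher in NR than in NS and 7 lower in HR than in NR. Other lists were mixed in NR minus NS, with 2 higher and 2 lower of 5 podocyte markers. Of 5 fibroblast and pericyte markers 2 were higher and 1 lower, and of 6 monocyte and macrophage markers 2 and 1. Of 5 red blood cell markers 0 were called. Counts of 2 or 3 in lists this short do not stand clear of the shares of all genes. The part of these cell types in the differences of the 9 genes was not tested.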

How the data were processed

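Kidney RNA of 12 mice, 3 in each of 4 groups, was sequenced on a DNBSEQ-T7 after TRIzol extraction and library preparation with a VAHTS Universal V10 kit, per the labels' protocols. All libraries carry the same batch label. The authors deposited 1 table of FPKM per gene symbol. Per the submitters' processing notes, HTSeq, DESeq2 and the mm10 build were used, with no roles or versions, while aligner, annotation and strand setting are not given in the sources used. FPKM scales each library to its total, so that a change in a few abundant genes shifts all others.

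From the deposited FPKM, log2(FPKM + 1) was fitted with limma 3.58.1 in R 4.3.3, 1 mean per group over all 12 libraries, with a mean-variance trend, after leaving out genes that reached an FPKM of 1 in fewer than 3 libraries. The 12357 genes tested gave Benjamini-Hochberg adjusted p, and a gene was called under 0.05. A fold change on this scale understates the change of low genes. Ratios were tested by two-sided exact permutation over mice. Gene positions come from RefSeq genes on mm10. Strands and exon overlaps come from the GENCODE annotation of mm10, and no other gene's exons overlapped those of the 9 genes. Near-identical transcripts were searched with BLAST 2.17.0 at 90% identity over 200 bases.

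Some genes of the lists are not reported here and were left out of the list counts. The 9 genes and all gene and marker lists were chosen with earlier results of these data known. The rule for other genes named took up to 4 called genes of a list with the smallest adjusted p per comparison, and the 6 most like genes. Alas1, Acod1 and Nrf1 were named after their values were seen. Whole reads were recovered for all 25553 genes at a tolerance of 1e-08. The search took the smallest counts that made all values of a gene whole, so that whole values are no check on it. For genes seen in few libraries the recovered reads may be a whole fraction of the true reads. Limma voom on those reads was an alternative chosen after seeing the data, and called 8861 genes in NR minus NS. Others were median-ratio or quantile scaling, a pseudocount of 0.1, a filter at FPKM 5 or none, no trend, fits of only the groups compared, the replicate number as a block, and leaving out each library.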

Additional observations from a re-analysis of the deposited data

Results flagged for a closer look

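The test of the difference between injury effects passed for 2 of the 9 genes. Suclg1 had an injury effect of -0.26 in preconditioned mice (HR minus HS), against -0.73 in mice without preconditioning (NR minus NS), a difference of 0.47 on the log2 scale. Idh2 had -0.996 in preconditioned mice, against -1.29 in mice without preconditioning, a difference of 0.30. The Suclg1 call held in 20 of 20 alternatives and the Idh2 call in 9 of 20. Among all genes, 23.9% were called in this test and 11.3% were called higher. The count of 2 in 9 lies near the share called, so it does not set the 9 genes apart. In the same test 8 of 10 proximal tubule markers and 5 of 6 thick ascending limb markers were called higher, with 0 lower in either list. Of 7 neutrophil markers tested, 4 were called lower. The part of these cell types in the 2 differences was not tested.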

How the results depend on the processing

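The 6 genes called lower in NR minus NS, and the 5 in HR minus HS, were called in all 21 alternatives run for each. The replicate numbers are not stated to pair the mice. Same-numbered mice of different groups deviated together with r of -0.25 to 0.17. With 3 mice per group, these values cannot show whether such mice shared a litter or day. With the replicate block, the interaction was called for 1 gene (Suclg1) in place of 2, Idh2 having an adjusted p of 0.0532, and Sucla2 lost its HR minus NR call at 0.0638. In a fit of only the groups compared, HR minus NR called 2 of the 9 genes and 3373 of all genes, against 5203, and HS minus NS called 303 of all genes, against 52. HS minus NS called 31 with a pseudocount of 0.1. On leaving out single libraries, HR minus NR called 3 to 6 of the 9 genes (the 6 without NR replicate 1 being 5 higher and Fh1 lower), the interaction 1 to 2, and HS minus NS 23 to 80 of all genes, with 23 to 27 without any 1 NS replicate, 31 without HS replicate 1, 30 without HS replicate 3 and 80 without HR replicate 2. Median-ratio rescaling put HR at 34.96% (Idh3a), 51.98% (Suclg1), 74.53% (Idh2), 74.63% (Ogdh), 81.31% (Sucla2) and 95.04% (Suclg2) of the way from NS to NR.

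Signs turned only in differences that were not called. After median-ratio rescaling these were Cs in NR minus NS (-0.12), Mdh2 in HR minus NR (-0.0198), and Suclg1 (-0.0602) and Fh1 (-0.0232) in HS minus NS, and after quantile normalization Cs in HR minus HS (0.0163). On leaving out single libraries, NR minus NS ran from -0.0552 to 0.0471 for Cs and -0.2168 to 0.0777 for Fh1, and HR minus NR from -0.2251 to 0.0693 for Fh1. HS minus NS ran from -0.0918 to 0.0067 for Sucla2, -0.0086 to 0.0422 for Suclg1 and -0.0455 to 0.0001 for Suclg2. HR minus HS of Cs ran from -0.0660 to 0.0107. The interaction ran from -0.0718 to 0.0330 for Cs, -0.2824 to 0.0121 for Fh1 and -0.0780 to 0.0318 for Mdh2. The cause of these changes was not tested. With 3 mice per group, the 95% interval of NR minus NS was -0.33 to 0.17 for Fh1 and -0.29 to 0.02 for Mdh2.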
